A study of Mus musculus with 4 samples.

Results

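The genes described here make, fold, check and dispose of proteins in the endoplasmic reticulum (ER). They are a list of 56 gene symbols in 6 classes, and a gene entered the comparison through the probe sets that the array's annotation assigns to its symbol alone, with the probe set of highest mean log2 level standing for it. By this rule 55 of the 56 were measured, of 12393 genes on the array. Sec61g had no probe set of its own and was not measured. All 55 passed the filter on dim probe sets, which left 6949 genes in all, and all 55 were brighter than the brightest bacterial (Bacillus) control probe set of the same array in all 4 clones.

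The samples were clones of Py-4-1, a mouse hemangioendothelioma (a tumour of endothelial cells) line in culture. One set of clones carried pcDNA/Prox1 and was labelled as stable for Prox1, a homeobox protein that drives lymphatic endothelial identity, and the control set had been transfected with pcDNA. There were 2 clones in each group, numbered 1 and 2 in the labels, with 1 array each, so the spread between samples is a spread between clones and no array was repeated. Any trait that a single clone acquired in selection is part of its value. Prox1 itself was not higher in the clones labelled for it. Its probe set read 62.4 and 44.3 in the Prox1-labelled clones, against 52.1 and 60.5 in the control clones, below the brightest Bacillus control in 3 clones and just above it in control clone 1 (88.4 and 97.5 in the Prox1-labelled clones, against 45.3 and 101 in the control clones). Whether that probe set matches the transfected sequence is not given in the sources used here, so directions below are those between clones as labelled.

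All 4 arrays shared a trimmed mean of 500, and the median intensity over all probe sets was 179.7 and 173 in the Prox1-labelled clones, against 163 and 177 in the control clones. The 3'/5' intensity ratio of the Gapdh control probe sets was 0.759 and 0.784 in the Prox1-labelled clones, against 0.787 and 0.80 in the control clones, and that of Actb was 1.44 and 1.29 in the Prox1-labelled clones, against 1.35 and 1.38 in the control clones, with the groups overlapping for Actb. All 12 endothelial markers looked for were on the array, and 11 passed the filter, Pecam1 among them at 6242 and 5826 in the Prox1-labelled clones, against 5679 and 5418 in the control clones. These 11 all had a positive log2 difference, with a median of 0.22, or 0.03 without control clone 1. Of 28 measured markers of other cell types, 14 were at or below the brightest Bacillus control in all 4 clones, among them Ptprc (leukocytes), Epcam (epithelium), Pdgfrb (mural cells) and Snap25 (neurons). Another 6 were above it in all 4 clones, namely Cd68, Lyz2, Sdc1, Krt8, Col1a2 and Acta2, and 8 in some clones. Of the 6, the macrophage marker Cd68 had its groups apart, at 708 and 806 in the Prox1-labelled clones, against 847 and 969.6 in the control clones, and the other 5 overlapped. The part of these markers in the results below was not tested.

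Secreted and membrane proteins enter the ER through the Sec61 channel, lose their signal peptide, and gain N-glycans from the oligosaccharyltransferase. Chaperones such as BiP (Hspa5) and the lectins calreticulin and calnexin hold the chain while disulfide isomerases pair its cysteines, and chains that fail to fold are pulled back to the cytosol and degraded by ER-associated degradation (ERAD). When unfolded chains build up, the sensors Ire1 (Ern1), Atf6 and Perk start the unfolded protein response, in which spliced Xbp1 and cleaved Atf6 switch on many of the chaperone and degradation genes. Endothelial cells use this machinery for a large output of von Willebrand factor, collagens and other matrix proteins.

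As a group these genes read lower in the Prox1-labelled clones. The class medians were lowest for chaperones (-0.62) and isomerases (-0.56), but without control clone 1 the chaperone median of -0.35 was only the fourth lowest of the 6. The log2 difference, Prox1-labelled minus control, was negative for 48 of the 55 and positive for 7, with a median of -0.39 (a level 0.761 times that of the controls). Over all 6949 genes tested the median was 0.01 and 49.1% were negative. Both Prox1-labelled clones lay below both control clones for 38 of the 55 (69.1%), against 23.2% of all genes tested. The opposite order held for 2, Sec61b and Vcp, where the background was again 23.2%. In the other 15 the groups overlapped.

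No gene of the 55 passed the test used across the array. With limma and Benjamini-Hochberg adjustment over 11656 probe sets, 12 probe sets passed an adjusted p of 0.05 in the whole table (0.103%), none of them among the 106 tested probe sets of these genes, whose smallest adjusted p was 0.0530 for Pdia4. At an unadjusted p under 0.05, 24 of the 55 (43.6%) were lower and 1, Sec61b, was higher. That background was 6.13% of all genes for lower and 8.22% for higher. The count of 24 became 9 without Prox1-labelled clone 2 (background 3.11%), 17 without Prox1-labelled clone 1 (2.48%), 19 without control clone 1 (8.76%) and 26 without control clone 2 (10.9%). Differences are on the scale log2(intensity + 47), which understates those of dim genes, and none of the values that follow passed the adjusted threshold.

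**Figure D1:**
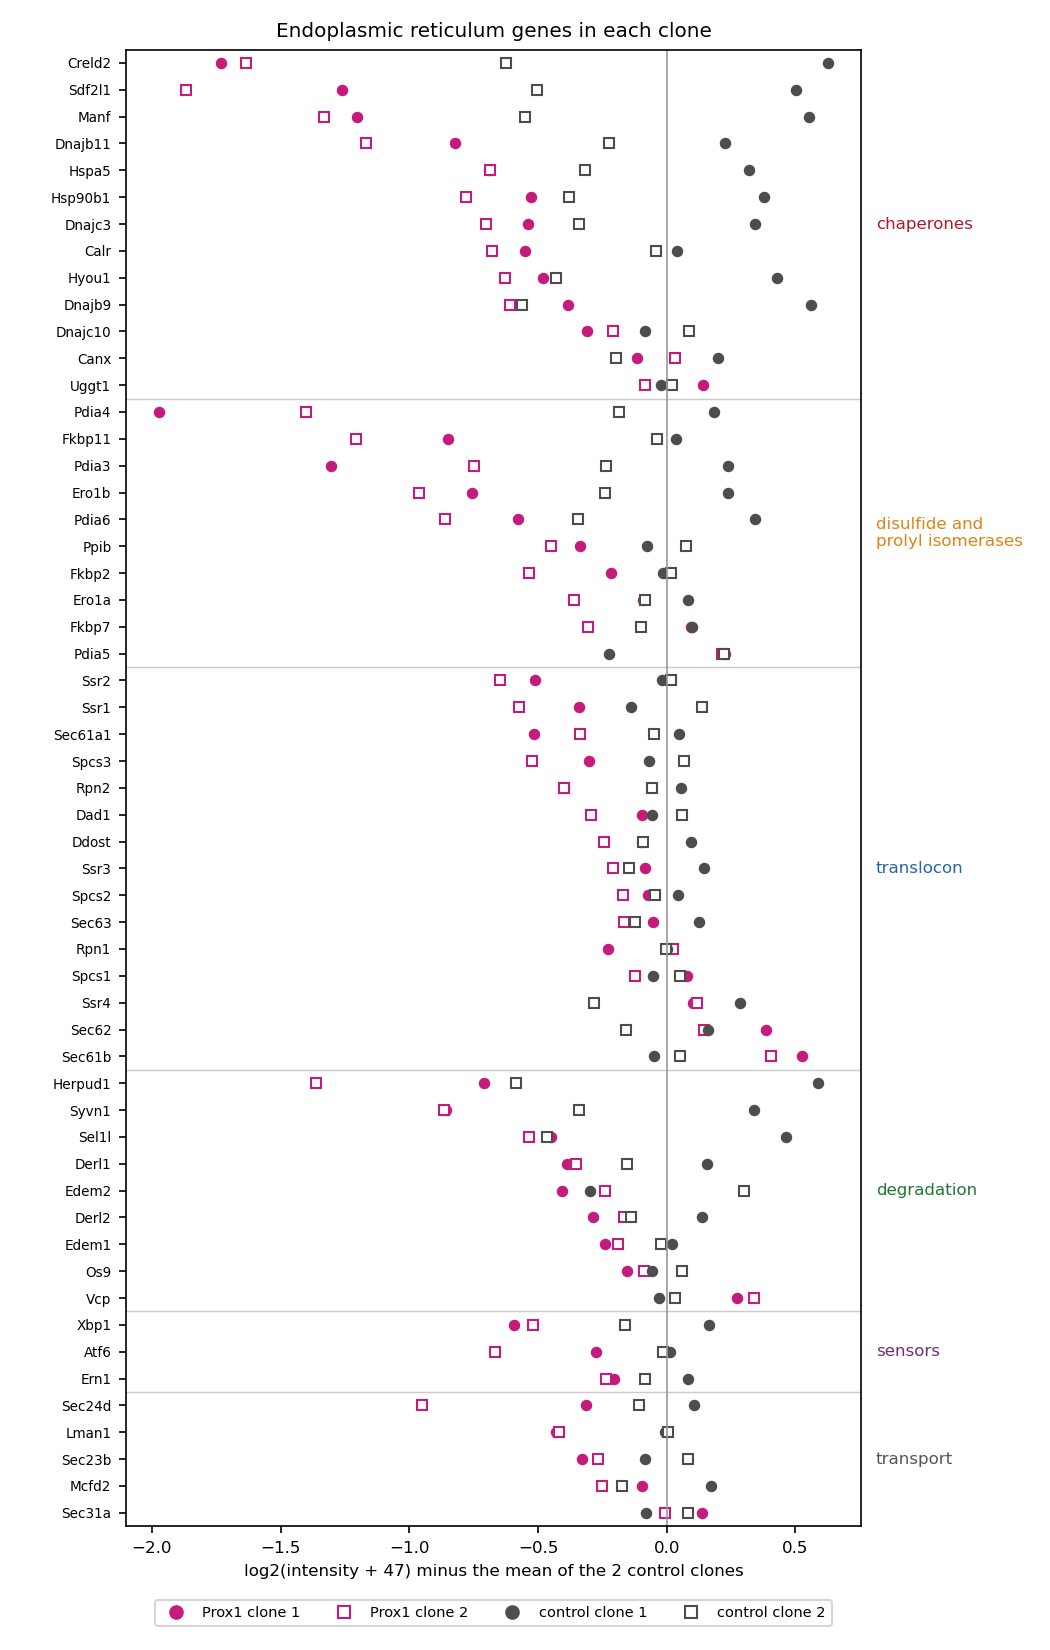
Log2(intensity + 47) of each of the 55 genes in each clone minus that gene's mean over the 2 control clones (x axis), 1 gene per row and grouped by class, with coloured markers for the Prox1-labelled clones, grey ones for the control clones, filled circles for clone 1 and open squares for clone 2. Control clone 1 held the highest value for 36 genes and Prox1-labelled clone 2 the lowest for 32.

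**Figure D2:**
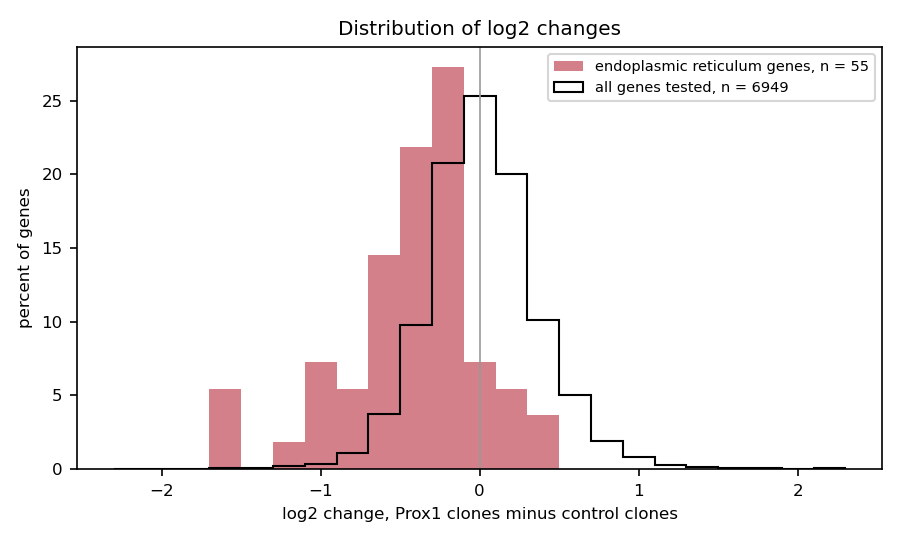
Share of genes (y axis, percent) by log2 difference, Prox1-labelled minus control clones (x axis), for the 55 ER genes and for all 6949 genes tested. The ER genes centre at a median of -0.39, and all genes at 0.01.

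The 56 symbols were matched to RefSeq promoter windows (GRCm38.p6, 250 bases before to 50 after the annotated start), and 48 had one (not Hyou1, Manf, Sec61a1, Ssr2, Spcs3, Derl1, Atf6 and Lman1). The windows were searched on both strands for 3 sequence elements of the unfolded protein response. The ER stress element ERSE was searched as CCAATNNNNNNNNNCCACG, which in known target genes is bound by NF-Y at its CCAAT end and by Atf6 or Xbp1 at its CCACG end. ERSE-II was searched as ATTGGNCCACG and the core of the unfolded protein response element (UPRE) as TGACGTGG. ERSE and ERSE-II share the CCACG end, and no site matched both. ERSE was present in 9 of the 48 windows (18.8%) and in 29 of 17492 windows of coding genes (0.166%). ERSE-II was present in 2 (4.17%, Dnajb11, where it lies after the start, and Herpud1), against 0.0629% of coding genes, and the UPRE core in 2 (4.17%, Vcp and Sec24d), against 0.823%. The windows with ERSE were 6 of 11 chaperone windows (Hspa5, Hsp90b1, Calr, Canx, Dnajc3, Creld2), 2 of 10 isomerase windows (Pdia6, Ero1b) and 1 of 8 degradation windows (Syvn1). None of the 13 translocon, 2 sensor or 4 transport windows held one.

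The stretches around these elements are printed here because they set 9 of the genes, 6 of them chaperones, apart from the other windows by sequence. Each reads 5' to 3' on the gene's own strand, with the fixed letters of the element in capitals. CCAAT followed by CCACG is the element in the forward sense, and CGTGG followed by ATTGG is the same element in reverse.
Hspa5 (chr2:34772000-34772068, plus strand): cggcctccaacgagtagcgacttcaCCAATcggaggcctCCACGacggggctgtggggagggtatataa
Hsp90b1 (chr10:86705508-86705681, minus strand, with 2 elements): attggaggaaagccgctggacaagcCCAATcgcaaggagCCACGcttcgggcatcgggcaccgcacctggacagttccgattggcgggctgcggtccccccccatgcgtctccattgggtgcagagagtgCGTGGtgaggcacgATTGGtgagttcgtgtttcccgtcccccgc
Calr (chr8:84847050-84847118, minus strand): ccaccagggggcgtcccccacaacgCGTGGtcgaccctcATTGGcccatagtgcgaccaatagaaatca
Canx (chr11:50325775-50325843, minus strand): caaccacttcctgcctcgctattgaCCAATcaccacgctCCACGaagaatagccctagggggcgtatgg
Dnajc3 (chr14:118937802-118937870, plus strand): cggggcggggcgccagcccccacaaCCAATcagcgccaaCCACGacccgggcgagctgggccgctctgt
Creld2 (chr15:88819495-88819563, plus strand): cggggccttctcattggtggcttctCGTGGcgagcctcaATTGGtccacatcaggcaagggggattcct
Pdia6 (chr12:17266466-17266534, plus strand): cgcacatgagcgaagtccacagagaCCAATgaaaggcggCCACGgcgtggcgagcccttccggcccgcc
Ero1b (chr13:12565657-12565725, plus strand): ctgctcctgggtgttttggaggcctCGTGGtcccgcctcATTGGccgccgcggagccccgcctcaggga
Syvn1 (chr19:6046507-6046575, plus strand): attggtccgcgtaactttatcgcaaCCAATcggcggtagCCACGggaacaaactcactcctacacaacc
Herpud1 (chr8:94386352-94386412, plus strand, ERSE-II): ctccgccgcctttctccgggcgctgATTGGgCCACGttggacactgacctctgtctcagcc

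The 9 genes with ERSE had a median log2 difference of -0.69. Both Prox1-labelled clones were below both control clones in 8 of them, the exception being Canx on its brightest probe set. The 38 measured genes whose window held none had a median of -0.22 and the groups were apart in this direction for 22. Of all genes tested, 23.2% were apart in this direction. The control clones also differed more in the 9 genes. Control clone 1 minus control clone 2 had a median log2 value of 0.68 in the 9 and 0.14 in the 38. Without control clone 1 the median differences were -0.38 and -0.14. Element and class cannot be told apart in these medians. Of the 9, 6 were chaperones, a class with a median of -0.62, and the 38 held every measured translocon, sensor and transport gene with a window. Among chaperones with a window, values ran from -1.68 to -0.04 with ERSE and from -1.56 to 0.03 without it. The part of the element was not tested. Low genes without the element were Pdia4, Sdf2l1, Fkbp11 and Pdia3, which were 2.04-fold to 3.22-fold lower and held none of the 3 sequences in this window. Hsp90b1 was the one gene of the 48, and of all coding genes, with 2 ERSE matches.

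**Figure D3:**
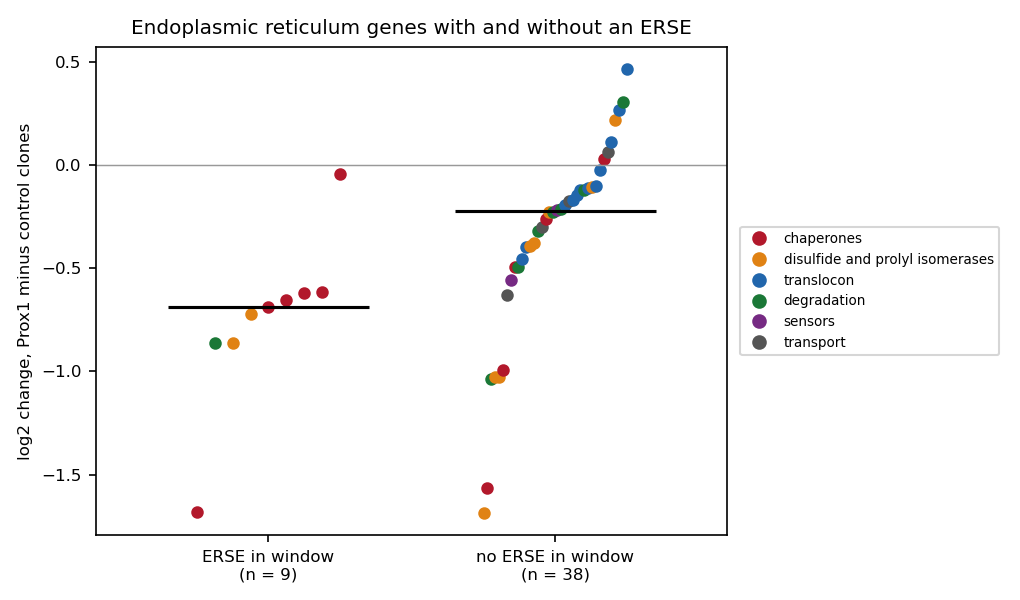
Log2 difference, Prox1-labelled minus control clones, of each measured gene with a promoter window (y axis), split by whether the window holds ERSE (left) or not (right), coloured by class, with the median as a bar and points spread sideways in order of value. The 9 genes with the element have a median of -0.69 and the 38 without it -0.22.

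The sensor class held 3 genes, the sensors Ern1 and Atf6 and the Ire1 substrate Xbp1. All 3 were lower in both Prox1-labelled clones than in either control clone, an order that 23.2% of all genes had. Their median was -0.47. The third sensor, Perk (Eif2ak3, from the list of other pathway genes), read 694 and 712 in the Prox1-labelled clones, against 699 and 746 in the control clones, with overlapping groups and a log2 difference of -0.04 ± 0.19 (SE) (limma adjusted p = 0.955). Xbp1, whose spliced mRNA encodes the factor that induces chaperone and ERAD genes, read 2409 and 2535 in the Prox1-labelled clones, against 4098 and 3257 in the control clones. The log2 difference was -0.56 ± 0.19 (SE), adjusted p = 0.238 by limma, and its 4 probe sets gave -0.69 to -0.42 with the groups apart in each. These values are not split into spliced and unspliced mRNA. Atf6, the membrane-bound factor released by cleavage, read 675 and 503 in the Prox1-labelled clones, against 836 and 818 in the control clones, a log2 difference of -0.47 ± 0.21 (SE) (limma adjusted p = 0.341) that was -0.28 without Prox1-labelled clone 2. Ern1, the kinase and RNase that splices Xbp1, read 355 and 346 in the Prox1-labelled clones, against 444 and 389.8 in the control clones, which is a narrow gap of -0.22 ± 0.20 (SE) (limma adjusted p = 0.665).

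The 13 chaperones and their partners had a median of -0.62, with 12 negative. The groups were apart in the lower direction for 10 (76.9%, against 23.2% of all genes). At an unadjusted limma p under 0.05, 8 were lower (61.5%, against 6.13% of all genes). Hspa5, the ER Hsp70 that binds unfolded chains and holds the sensors inactive, read 12885 and 12941 in the Prox1-labelled clones, against 25994 and 16709 in the control clones. Its mean was 12913 ± 39.5 in the Prox1-labelled clones and 21352 ± 6566 in the control clones (SD, n = 2 each). The 2 Prox1-labelled clones were nearly equal, and control clone 1 stood well above control clone 2. The log2 difference was -0.69 ± 0.21 (SE), 1.61-fold lower, with a limma adjusted p of 0.209, and a second Hspa5 probe set gave -1.14. Without control clone 1 the difference was -0.37. Hsp90b1 (Grp94), the ER Hsp90 that folds integrins and Toll-like receptors, read 4815 and 4033 in the Prox1-labelled clones, against 9061 and 5341 in the control clones, a log2 difference of -0.65 ± 0.25 (SE) that became -0.27 with control clone 1 left out, or -1.03 with control clone 2 left out.

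The lectin chaperones differed from each other on their brightest probe sets. Calr, the soluble lectin that also buffers calcium, averaged 6550.0 ± 411 in the Prox1-labelled clones and 10055 ± 394 in the control clones (SD, n = 2 each). Its clones, 6841 and 6259 in the Prox1-labelled clones, against 10334 and 9777 in the control clones, did not overlap and were close within each group, with a log2 difference of -0.62 ± 0.16 (SE) (limma adjusted p = 0.170) that was -0.58 without control clone 1. Canx, the membrane-bound lectin of the same cycle, read 4958 and 5497 in the Prox1-labelled clones, against 6177 and 4679 in the control clones, with overlapping groups and a log2 difference of -0.04. Its 3 tested probe sets ran from -0.29 to -0.02, and 1 of them had the groups apart in the lower direction. Uggt1, the glucosyltransferase that returns misfolded glycoproteins to both lectins, read 267 and 222 in the Prox1-labelled clones, against 234 and 242 in the control clones, with overlapping groups (0.03).

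The Hspa5 partners of the J-domain family had negative values of different size. Dnajb11 (ERdj3), which delivers substrates to Hspa5, read 1319 and 1028 in the Prox1-labelled clones, against 2778 and 2019 in the control clones, a log2 difference of -1.0 ± 0.22 (SE), or 1.99-fold lower (limma adjusted p = 0.142). Every Prox1-labelled value lay under every control value, and the difference was -0.77 with control clone 1 left out. Dnajc3 (P58IPK), a co-chaperone of the lumen, read 864 and 767 in the Prox1-labelled clones, against 1629.9 and 997 in the control clones, a log2 difference of -0.62 ± 0.25 (SE). It was -0.28 without control clone 1, -0.96 without control clone 2 and -0.29 as a mean over its 4 probe sets, which ranged from -0.62 to 0.18. Dnajc10, a J protein with thioredoxin domains that reduces disulfides before ERAD, had -0.26 and probe sets from -0.66 to 0.06. Dnajb9 (ERdj4) read 2489.8 and 2125 in the Prox1-labelled clones, against 4838 and 2199 in the control clones. Its groups overlapped, and its difference of -0.50 was 0.06 without control clone 1. Hyou1, the large nucleotide-exchange chaperone, read 1603 and 1443 in the Prox1-labelled clones, against 3053 and 1664 in the control clones on its brightest probe set, a difference of -0.55 that was -0.13 without control clone 1. A dimmer Hyou1 probe set read 466 and 449 in the Prox1-labelled clones, against 1753 and 1009 in the control clones, a log2 difference of -1.45 (limma adjusted p = 0.103).

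The largest differences of the class were in small secreted or lumenal stress proteins. Creld2, an EGF-domain protein of the lumen, read 1022 and 1096 in the Prox1-labelled clones, against 5425 and 2254 in the control clones, and averaged 1059 ± 52.5 in the Prox1-labelled clones and 3839 ± 2242 in the control clones (SD, n = 2 each). It was 3.21-fold lower, with a log2 difference of -1.68 ± 0.34 (SE) and a limma adjusted p of 0.128. Sdf2l1, a cofactor of Dnajb11, read 529 and 331 in the Prox1-labelled clones, against 1910.3 and 926 in the control clones, a log2 difference of -1.56 ± 0.33 (SE) (limma adjusted p = 0.128). Manf, a secreted factor that binds Hspa5, read 3112 and 2842 in the Prox1-labelled clones, against 10609 and 4915 in the control clones, with -1.27 ± 0.31 (SE) (limma adjusted p = 0.165). In all 3 the groups were apart and control clone 1 was more than 2 times control clone 2. Without control clone 1 their log2 differences were -1.06, -1.06 and -0.72.

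The 10 disulfide and prolyl isomerases had a median of -0.56, with 9 negative and 8 apart in the lower direction (80.0%, against 23.2% of all genes). Pdia4 (ERp72), a multi-domain isomerase, read 565 and 862 in the Prox1-labelled clones, against 2677 and 2065 in the control clones, and averaged 713 ± 209.9 in the Prox1-labelled clones and 2371 ± 433 in the control clones (SD, n = 2 each). The Prox1-labelled clones lay far below both controls, 3.22-fold on average, and the log2 difference of -1.69 ± 0.24 (SE) was the largest of the 55 (limma adjusted p = 0.0530). Pdia3 (ERp57), which works with calreticulin and calnexin on glycoproteins, read 3193 and 4710.1 in the Prox1-labelled clones, against 9375 and 6743 in the control clones, a difference of -1.03 ± 0.24 (SE) (limma adjusted p = 0.152). Pdia6, an isomerase that also damps Ire1 and Perk, read 3417 and 2798 in the Prox1-labelled clones, against 6518 and 4025 in the control clones, with -0.72 ± 0.24 (SE) and -0.38 without control clone 1. In these 3 the groups did not overlap.

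The 2 oxidases that recharge the isomerases were both lower in the Prox1-labelled clones on their brightest probe sets. Ero1b read 257 and 217 in the Prox1-labelled clones, against 560.0 and 388 in the control clones, a log2 difference of -0.86 ± 0.23 (SE) (limma adjusted p = 0.174), and Ero1a, the more broadly expressed paralog, read 2724 and 2255 in the Prox1-labelled clones, against 3087 and 2743 in the control clones, or -0.23. The 3 tested Ero1a probe sets ran from -0.51 to -0.05, with the groups apart in the lower direction in 2. Dimmer Ero1b probe sets failed the filter and were not tested. They had -0.12 with groups overlapping and 0.75 with groups apart in the higher direction. Among prolyl isomerases Fkbp11 read 410.2 and 310.3 in the Prox1-labelled clones, against 798 and 756 in the control clones, a log2 difference of -1.03 ± 0.21 (SE) that was -0.99 without control clone 1 and -1.06 without control clone 2. It was about equally far below either control clone. Ppib (cyclophilin B), which acts on procollagen, read 4213 and 3883 in the Prox1-labelled clones, against 5055 and 5612 in the control clones, a smaller gap of -0.39 ± 0.17 (SE). Fkbp2 had -0.38 with groups apart, Fkbp7 -0.10 with groups overlapping, and Pdia5 was the class's one positive value at 0.22, also overlapping.

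**Figure D4:**
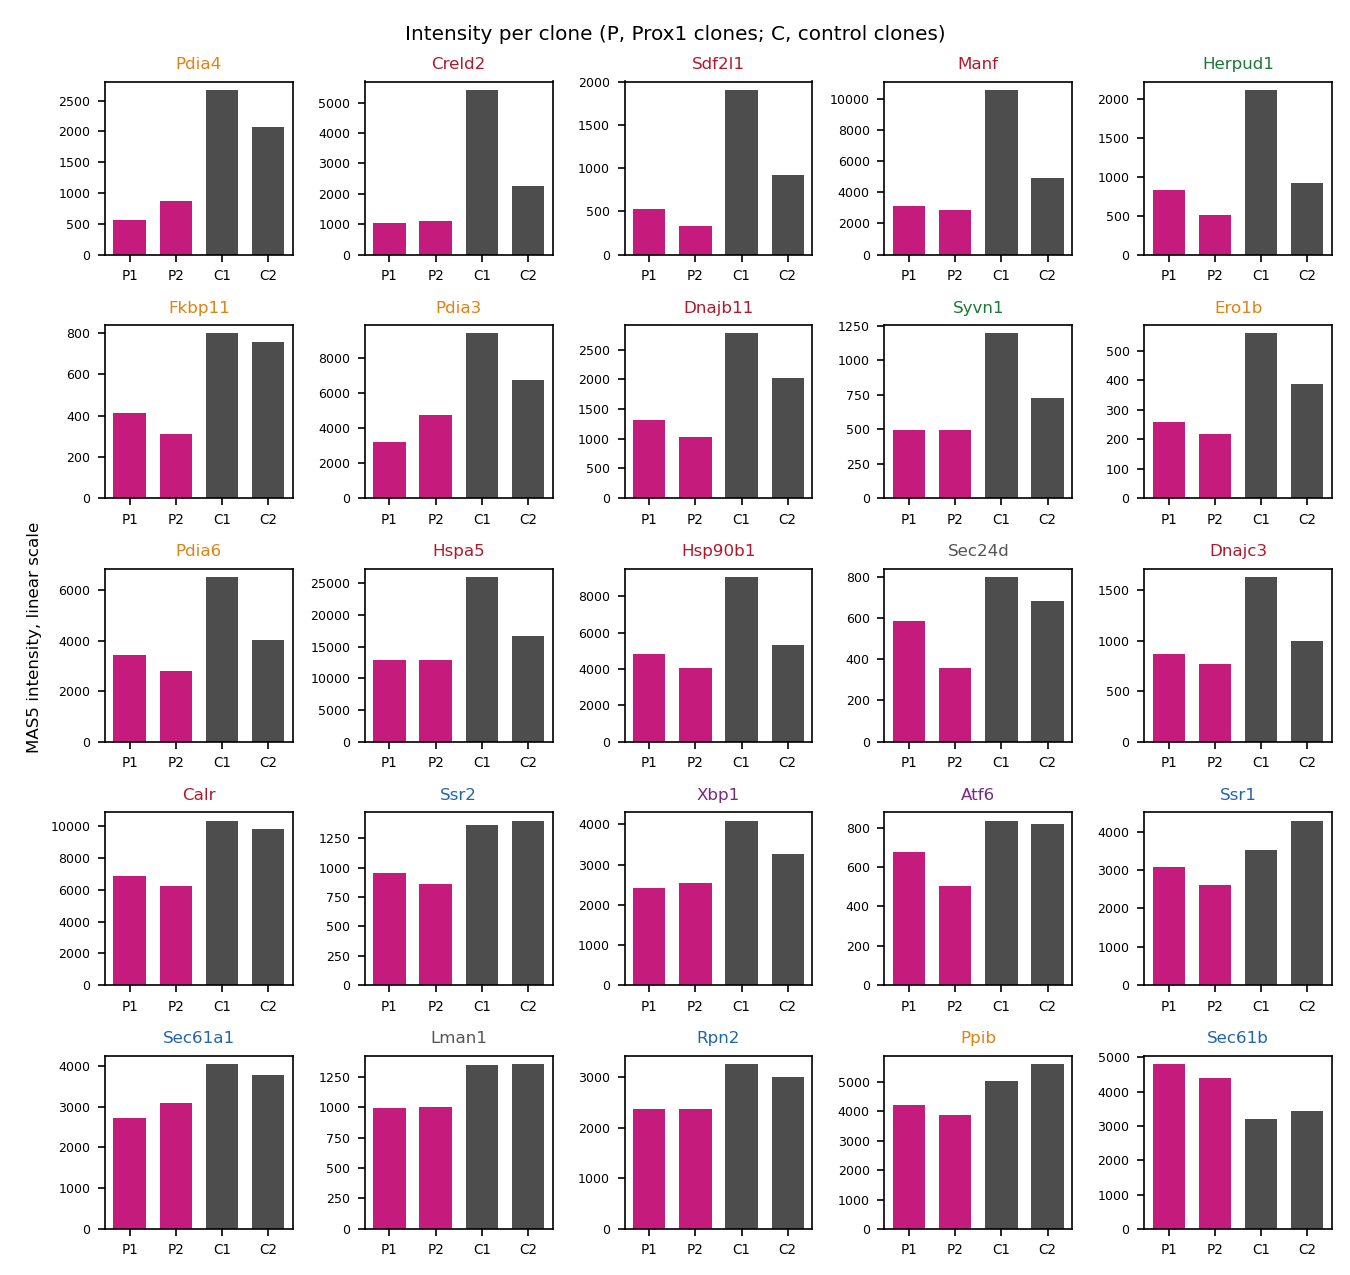
Intensity (y axis, linear scale from 0, its own range in each panel) of the 25 named genes, with 1 bar for each clone, the Prox1-labelled clones P1 and P2 on the left and the control clones C1 and C2 on the right of each panel. In 24 of the 25 panels both P bars are shorter than both C bars, and in the panel of Sec61b both are taller.

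The 15 measured translocon, signal peptidase and oligosaccharyltransferase genes had values nearer 0, with a median of -0.15 and 12 negative. The groups were apart in the lower direction for 8 (53.3%, against 23.2% of all genes). Within the translocon, 2 subunits differed in sign. Sec61a1, which forms the channel, read 2719.5 and 3083 in the Prox1-labelled clones, against 4039 and 3776 in the control clones, a log2 difference of -0.43 ± 0.17 (SE) (limma adjusted p = 0.312). This was the most negative of its 6 tested probe sets, which ran up to -0.04 with a mean of -0.24 and had the groups apart in 3, and without probe sets whose suffix marks several transcripts the value was -0.17. Sec61b, a small tail-anchored subunit of the same complex, read 4798 and 4406 in the Prox1-labelled clones, against 3205 and 3439.5 in the control clones, a difference of 0.46 ± 0.17 (SE) (limma adjusted p = 0.269), and both Prox1-labelled clones were above both controls. Sec62 and Sec63, which assist post-translational import, had 0.27 and -0.11 with overlapping groups.

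The translocon-associated protein (TRAP) complex, which helps certain signal peptides engage the channel, was also split. Ssr1 read 3066 and 2597 in the Prox1-labelled clones, against 3531 and 4287 in the control clones, with -0.46 ± 0.19 (SE), and Ssr2 read 955 and 865 in the Prox1-labelled clones, against 1366 and 1400.4 in the control clones, with -0.58 ± 0.18 (SE) and nearly the same value, -0.60, without control clone 1. Both were lower with groups apart, while Ssr3 had -0.15 and Ssr4 0.11. Ssr4 was the gene whose probe sets differed most: a dimmer one read 277 and 263 in the Prox1-labelled clones, against 76.5 and 53.9 in the control clones, with both control values under their arrays' medians and that of control clone 2 under the brightest Bacillus control. It passed the filter through the Prox1-labelled clones alone, so no test of it is given. The 3 signal peptidase genes Spcs1, Spcs2 and Spcs3 had -0.02, -0.12 and -0.41. Of the oligosaccharyltransferase, Rpn2 read 2361 and 2365 in the Prox1-labelled clones, against 3257 and 3010.5 in the control clones, a difference of -0.40 ± 0.17 (SE) (limma adjusted p = 0.333), and Rpn1, Ddost and Dad1 had -0.10, -0.17 and -0.20. The 5 tested probe sets of Rpn1 ran from -0.42 to -0.04, with the groups apart in the lower direction in 3.

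The 9 degradation genes had a median of -0.32, with 8 negative and 6 apart in the lower direction (66.7%, against 23.2% of all genes). Syvn1 (Hrd1), the ubiquitin ligase at the centre of the ERAD complex, read 495 and 492 in the Prox1-labelled clones, against 1196 and 729 in the control clones, a log2 difference of -0.86 ± 0.24 (SE) (limma adjusted p = 0.188) that was -0.52 without control clone 1. Herpud1, a short-lived stress-induced partner of Syvn1, read 834 and 512 in the Prox1-labelled clones, against 2114 and 912 in the control clones, a difference of -1.04 ± 0.37 (SE) (limma adjusted p = 0.255) that became -0.45 with control clone 1 left out, or -1.62 with control clone 2 left out. Both genes had their groups apart. Sel1l, the adaptor that stabilises Syvn1, read 1005 and 945 in the Prox1-labelled clones, against 1936 and 994 in the control clones, so that its -0.49 was -0.03 without control clone 1. Derl1, of the retrotranslocation channel, had -0.37 and was lower on all 4 of its probe sets, and Derl2 had -0.23. Among lectins that pick out substrates, Edem1, Edem2 and Os9 had -0.22, -0.32 and -0.12. Edem2 was the 1 gene of the 55 with control clone 2 at least 1.5-fold above control clone 1, at 658 and 1021 in control clones 1 and 2. Vcp (p97), the cytosolic ATPase that pulls substrates out of the membrane, read 6797 and 7121 in the Prox1-labelled clones, against 5493 and 5736 in the control clones, higher in both Prox1-labelled clones by 0.31 ± 0.16 (SE) (limma adjusted p = 0.419).

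The 5 genes of ER-to-Golgi transport had a median of -0.30. Lman1 (ERGIC-53), a cargo receptor for coagulation factors, averaged 994 ± 5.53 in the Prox1-labelled clones and 1349 ± 6.68 in the control clones (SD, n = 2 each), with little spread in either group. Its log2 difference was -0.42 ± 0.18 (SE) (limma adjusted p = 0.328), and all 4 of its probe sets had the groups apart in this direction. Mcfd2, its calcium-binding partner, had -0.17 with groups overlapping. Of the COPII coat, which buds the transport vesicles, Sec24d read 585 and 359 in the Prox1-labelled clones, against 799 and 682 in the control clones, a difference of -0.63 ± 0.25 (SE) that was -0.31 without Prox1-labelled clone 2 and -0.95 without Prox1-labelled clone 1. Sec23b had -0.30 with groups apart, and Sec31a had 0.06 with groups overlapping.

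The 2 control clones were themselves unlike in these genes. They differed by at least 1.5-fold in 13 of the 55 (23.6%), against 14.3% of all genes, and control clone 1 was the higher one in 12 of the 13. Over all genes it was the higher one in 320 of 993. The 13 were Hspa5, Hsp90b1, Hyou1, Dnajb9, Dnajc3, Sdf2l1, Manf, Creld2, Pdia6, Sel1l, Syvn1, Herpud1 and, with control clone 2 higher, Edem2. Their median log2 difference was -0.69 with all 4 clones, -0.38 without control clone 1 and -1.06 without control clone 2, while the other 42 had -0.23, -0.20 and -0.31. The Prox1-labelled clones differed from each other by 1.5-fold in 3 of the 55 (5.45%), against 3.83% of all genes. By class, leaving out control clone 1 took the median to -0.35 for chaperones, -0.43 for isomerases, -0.39 for sensors, -0.19 for degradation, -0.08 for the translocon and -0.38 for transport.

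A lower reading was nonetheless present against each control clone. The mean of the Prox1-labelled clones was below control clone 1 for 48 of the 55 (87.3%, against 46.6% of all genes) and below control clone 2 for 47 (85.5%, against 53.6%). At least 1.5-fold below each control clone were 8 of the 55 (14.5%), namely Pdia4, Creld2, Sdf2l1, Fkbp11, Pdia3, Dnajb11, Manf and Ero1b, against 1.70% of all genes. With control clone 1 left out, both Prox1-labelled clones were below the remaining control clone for 39 of the 55 (70.9%), against 41.9% of all genes. The 38 genes whose groups were apart in the lower direction with all 4 clones had to be among these 39, and among the 48 and the 47. These counts are therefore not separate from the count of 38.

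**Figure D5:**
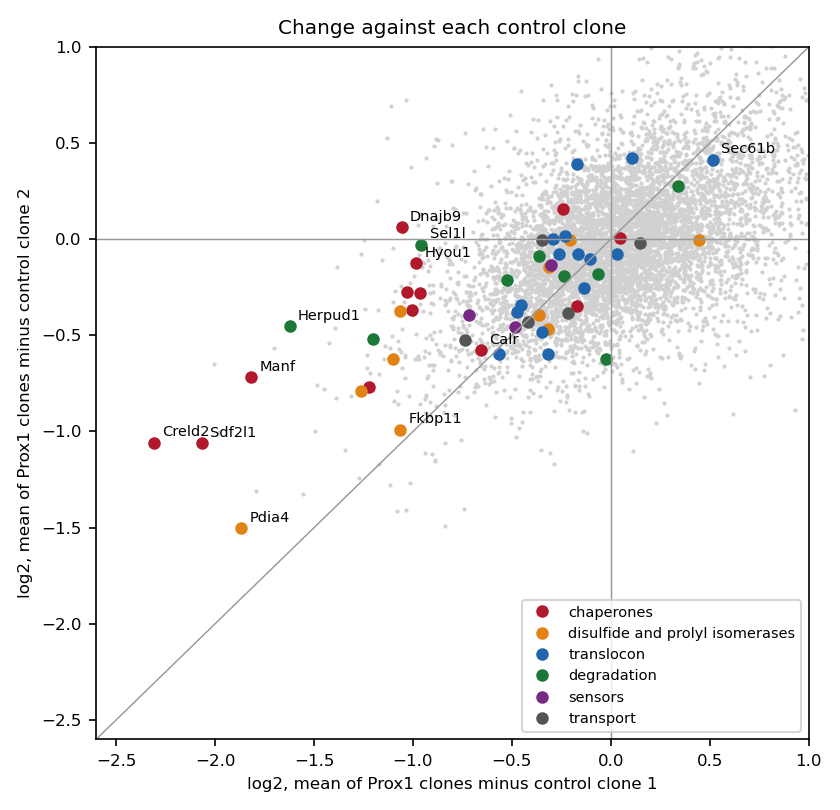
Log2 difference of the mean of the Prox1-labelled clones from control clone 1 (x axis) and from control clone 2 (y axis) for the 55 ER genes and all genes tested. Points are coloured by class, other genes are small grey dots, and other genes beyond the axis limits are not drawn. Of the 55, 48 lie below 0 on the control clone 1 axis and 47 on the control clone 2 axis.

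The genes are mostly bright, and values of genes of like brightness are set beside theirs. Of the 55, 32 were in the brightest of 5 equal bins of all genes tested, where they had a median of -0.33 against -0.03 for all genes of that bin. The 10 in the next bin had -0.46 against -0.00, the 9 in the middle bin had -0.47 against 0.00, the 3 in the bin below it had -0.22 against 0.03, and the 1 in the dimmest bin, Uggt1, had 0.03 against 0.04. In the brightest bin the groups were apart in the lower direction for 22 of the 32 (68.8%) and for 26.9% of all genes.

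Several probe sets of a gene mostly ran one way. Of 26 genes with several tested probe sets, 20 were negative on every one, 2 (Sec62 and Ssr4) were positive on every one, and 4 (Dnajc3, Dnajc10, Os9 and Sec63) were mixed. Of all 106 tested probe sets of the 55 genes, 92 were negative. The shares over all probe sets of the array are not given here, so these counts have no background beside them. Probe sets of the same gene are read from the same 4 arrays and are not separate evidence. The 106 include the dimmer Ssr4 probe set that passed the filter through the Prox1-labelled clones alone.

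Other genes of the same pathways had values nearer 0. Of 105 listed, 88 were measured and 85 tested, with 64 negative, a median of -0.16 and none past the adjusted threshold of limma. At an unadjusted limma p under 0.05, 15 of the 85 (17.6%) were lower, against 6.13% of all genes, and 1 was higher, against 8.22%. The 15 and the 1 are named below because they met this cut, so they do not stand for their functions. Some other listed genes of like function are set beside them. The groups were apart for 32 (37.6%) in the lower and 12 (14.1%) in the higher direction, against 23.2% of all genes in each. P4hb, the founding disulfide isomerase and a subunit of collagen prolyl hydroxylase, read 7072 and 6119.7 in the Prox1-labelled clones, against 11391 and 8527 in the control clones. Its log2 difference was -0.58, or -0.37 without control clone 1. Sec11c, a catalytic subunit of signal peptidase, read 776 and 695 in the Prox1-labelled clones, against 1413 and 1182 in the control clones, or -0.78. Ppp1r15a (Gadd34) and Ppp1r15b, which restore translation by dephosphorylating eIF2 alpha, had -0.77 and -0.56, and Trib3, a pseudokinase induced by ER stress, had -0.75. Without control clone 1 these were -0.37, -0.59 and -1.03, and without control clone 2 they were -1.18, -0.53 and -0.48. Atf4 and Ddit3, from the same list, had -0.22 and -0.39 with overlapping groups, and Ddit3 was 0.10 without control clone 1.

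The ERAD partners Ube2g2 and Nploc4, a ubiquitin-conjugating enzyme and a Vcp cofactor, had -0.67 and -0.73. Ube2j1 and Ube2j2, also ubiquitin-conjugating enzymes, went the other way, with 0.40 (groups overlapping) and 0.39 (groups apart). Herpud2 had 0.31, with the groups apart in the higher direction. The cargo and vesicle proteins Lman2, Tmed9 and Surf4 had -0.63, -0.45 and -0.40. Of the same family as Tmed9, Tmed10 had 0.35 with the groups apart in the higher direction, and Tmed3 had -0.21 with groups overlapping. The oligosaccharyltransferase subunit Stt3b had -0.39, the lumenal protein Erp29 -0.54, the cyclophilin Ppic -0.54, the collagen chaperone Serpinh1 (Hsp47) -0.50 and Creld1 -0.49. Without control clone 1, Ppic was -0.31 and Serpinh1 -0.23, while Stt3b, Erp29 and Creld1 were -0.40, -0.48 and -0.53. All 15 that were lower at an unadjusted limma p under 0.05 had the groups apart in that direction. Bet1, a SNARE of vesicles between ER and Golgi, was the one higher at an unadjusted p under 0.05 among the 12 with the groups apart in the higher direction, with 790.4 and 707 in the Prox1-labelled clones, against 381 and 529 in the control clones, a log2 difference of 0.68.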

How the data were processed

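RNA from 2 pcDNA/Prox1 and 2 pcDNA clones of Py-4-1 was hybridised to 1 single-colour Affymetrix-type array each. The deposited values are intensities on a linear scale, made with MAS5, per the submitters' processing notes (version not given). From the values, each array was scaled to a 2% trimmed mean of 500. Arrays carry no read depth, and their number limits the precision.

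A pseudocount of 47, the 25th percentile of the whole table, was added to each intensity before taking log2. Of 22690 probe sets, 64 controls were left out, and 11656 exceeded their array's median in at least 2 of 4 arrays. The groups were compared in limma 3.58.1 (R 4.3.3; lmFit and trended eBayes, 2-sided), p-values being adjusted over these probe sets by the Benjamini-Hochberg method, after a test on simulated data. Gene names come from GEO's platform annotation: 20380 probe sets had 1 gene symbol, 691 had several and were not used. A gene was described in full if its unadjusted p was under 0.05 or its groups differed 1.5-fold without overlap (where a class had fewer than 2 such genes, the 2 with the smallest p). The second probe sets of Hyou1 and Ssr4 and some class partners were chosen after their values were seen. Promoters come from RefSeq (GRCm38.p6). The genes and lists were chosen with earlier results of these data known. Alternatives in scaling, pseudocount, filter, variance model, replicate block, probe set choice and left-out clones were tried.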

Additional observations from a re-analysis of the deposited data

How the results depend on the processing

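No gene of the 55 passed an adjusted p of 0.05 in limma as reported. At an unadjusted limma p under 0.05, 24 were lower, against 6.13% of all genes, and 1 was higher, against 8.22%. The count that passed was 1 with the larger pseudocount and 1 with the stricter filter, Pdia4 in both, and 7 with the clone number as a replicate block. The share of all genes that passed under these settings is not given here, so these counts have no background beside them. The deviations of same-numbered clones had a correlation of -0.01, so no shift shared by clone number was seen. Whether same-numbered clones were handled together is not given in the sample titles, and this value cannot decide it. Leaving out 1 clone gave 2 to 19 genes past the threshold, the 19 being without control clone 2, where 10.3% of all genes passed. The same step gave 9 to 26 lower genes at an unadjusted p under 0.05. The adjusted p of Pdia4 ran over all alternatives from 0.000384 to 0.367. The chaperone median was -1.01 to -0.35 with a clone left out. The isomerase median was -0.39 without probe sets whose suffix marks several transcripts and -0.71 to -0.43 with a clone left out. The translocon median was -0.072 without such probe sets and -0.23 to -0.077 with a clone left out, and the transport median was -0.38 to -0.27 with a clone left out. The cause of these shifts was not tested, and a left-out clone leaves a lone array assumed to vary like the others. None of 368 values of the named genes under the alternatives changed sign. That was largely fixed in advance. All 25 named genes had their groups apart in these same data, so leaving out 1 clone could not reverse a sign. The alternatives in filter, variance model and replicate block left each difference as it was.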

Other observations

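A further 20 coding genes outside the list held ERSE in the same RefSeq windows, 9 of them on the array and 2 above the filter on dim probe sets. These were chosen for that sequence after other values had been seen. Alg12, a mannosyltransferase that builds the N-glycan precursor, is read from the opposite strand of the Creld2 promoter and shares its ERSE. Its intensity was 492 and 342 in the Prox1-labelled clones, against 754 and 659.7 in the control clones, with the groups apart and a log2 difference of -0.72 (limma adjusted p = 0.212). Pan2, a subunit of a poly(A) nuclease, had -0.15. Derl3, a Derlin of ERAD with ERSE in its window, failed the filter and was not tested. It read 115 and 117 in the Prox1-labelled clones, against 28.5 and 32.7 in the control clones, higher in both Prox1-labelled clones, with both control values under the brightest Bacillus control of their arrays, while Derl1 and Derl2 had -0.37 and -0.23.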
